A study of Mus musculus with 12 samples.

Results

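The receptor-to-nucleus relay of the cytokine interferon gamma (IFNG) was examined through 9 genes in bulk RNA-seq of mouse tumors. They were taken by symbol from the 32288 rows of each of the 12 count files, as the receptor chains Ifngr1 and Ifngr2, the kinases Jak1 and Jak2, the transcription factor Stat2, the interferon regulatory factors Irf1, Irf8 and Irf9, and the inhibitor Socs1. The choice was by the genes' roles, with no threshold on a measured value, and earlier results of these data were known. The study placed the expression of IFNG and of the chemokine CXCL10 under the control of blue light in P815 mastocytoma tumors, and asked how the released cytokines altered gene expression in the tumor. Each DBA/2 mouse carried 1 subcutaneous tumor, and each of the 4 groups had 3 mice. The ages of these mice are not given in the labels.

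P815-IFNG, spelled P815-IFNγ in the labels, is a single-cell clone of the P815 line. It carries the light-activated transcription factor GAVPO, a cassette with Ifng, Cxcl10 and the secreted luciferase hGluc that GAVPO drives in blue light, and an mRuby-Fluc reporter. P815-M is also 1 clone, with mRuby-Fluc alone, so that a difference between the lines is a difference between 1 clone and another. Tumors of the light group received blue light in cycles of 12 h light and 12 h dark for 6 days, and tumors of the dark group received none. All mice had their own stroma and immune cells, and in bulk tumor RNA fewer cells of a type and less RNA per cell cannot be told apart. The 12 tumors came from separate mice.

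The libraries were of 2 kinds. Of the 12, 10 held 2211234 to 2946792 counts (the shallow libraries), and the third replicates of P815-IFNG light and P815-IFNG dark held 41473500 and 42338096 (the deep libraries). A floor of 3 counts lay at 1.02 to 1.36 counts per 1000000 counts of the library (CPM) in the shallow libraries and at 0.0709 and 0.0723 CPM in the deep ones, and covers counting error only. Every member was above it in all 12 libraries, with counts from 22 for Irf8 upwards. Log2 CPM over all genes correlated at 0.911 to 0.953 among the shallow libraries and at 0.982 between the deep ones, but at 0.733 to 0.806 across the kinds. The antisense-coded gene mt-Nd6 took 29.0% to 47.9% of mitochondrial counts in the shallow libraries and 3.56% and 3.85% in the deep ones. The kit marks strand, and whether reads of both kinds were counted on the same strand was not tested. The deep libraries are therefore given apart, and no comparison sets 1 kind against the other. The fit used below holds both kinds, with a term for the kind. In the alternative without that term, deep P815-IFNG libraries enter the means that are set against shallow P815-M libraries. GAVPO was at 429 to 537 CPM in the shallow P815-IFNG libraries and at 1393 and 1887 CPM in the deep ones, against 0 to 4 counts in each P815-M library, as the labels state. Of the defining mast cell genes, Kit, Cpa3, Cma1 and Gata2 were high in all libraries, whereas Fcer1a, at 0 in 10 of 12, and Ms4a2, both of the IgE receptor, the tryptase genes Tpsab1 and Tpsb2, the histidine decarboxylase gene Hdc and the protease gene Mcpt4 were low or at 0.

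IFNG signals by binding a receptor built of IFNGR1, which holds the ligand, and IFNGR2, which completes the signalling complex. JAK1 and JAK2, tyrosine kinases bound to these chains, then phosphorylate STAT proteins, and STAT dimers bind gamma-activated sites (GAS) in DNA. IRF1 is an early target that carries the response onwards, whereas STAT2 and IRF9 are parts of the complex that binds interferon-stimulated response elements (ISRE) and is best known downstream of type I interferon. IRF8 is a transcription factor of the myeloid and B lineages that IFNG can induce, and SOCS1 binds JAK kinases and shuts the signal off.

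The promoters of the members show which of them carry a GAS or ISRE sequence close to the start. RefSeq windows (GRCm38.p6) of 300 bases, from 250 before to 50 after the start, were found for all 9 members. The GAS was searched as TTCNNNGAA, which is its own reverse complement, and the ISRE as GAAA, any 2 bases and GAAA again, on both strands. A GAS lay in windows of Irf1 and Irf8 and an ISRE in those of Stat2 and Socs1, and the other 5 members held neither. Among 27025 genes, 9.55% had a window with the GAS and 3.99% with the ISRE. The stretches around these matches are shown, in capitals where the motif lies, 5′ to 3′ on the strand of the gene.
Irf1 (chr11:53769894-53769962, + strand): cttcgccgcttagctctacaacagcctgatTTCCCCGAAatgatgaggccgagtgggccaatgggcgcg
Irf8 (chr8:120736157-120736243, + strand): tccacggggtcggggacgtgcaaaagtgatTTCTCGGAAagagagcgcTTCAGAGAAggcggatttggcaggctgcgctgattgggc
Stat2 (chr10:128270248-128270315, + strand): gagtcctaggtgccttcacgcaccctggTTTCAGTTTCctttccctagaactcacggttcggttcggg
Socs1 (chr16:10785574-10785649, - strand): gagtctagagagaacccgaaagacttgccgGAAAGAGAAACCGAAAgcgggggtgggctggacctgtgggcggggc
Irf8 held 2 GAS matches in this window, and Socs1 held 2 ISRE matches that overlap each other. A match is a description of the letters and no evidence of binding.

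Across the comparisons, Ifngr1 was the single member called. Tests were edgeR's quasi-likelihood tests, Benjamini-Hochberg adjusted over 18804 genes, from 1 fit of all 12 libraries with a mean per group and a term for the kind of library. A call required an adjusted p no higher than 0.05 and a log2 fold change of at least 1 in size. In P815-IFNG tumors, light against dark, 0 of 9 members were called (background 0.0106% of genes called), 3 were under an unadjusted p of 0.05 (8.34%), and DESeq2 called 1, Irf1. In P815-M tumors, light against dark, 0 members were called (1.03%), 2 were under that unadjusted p (12.5%), and DESeq2 called 0. For P815-IFNG against P815-M in light, 0 were called (0.436%), 7 were under an unadjusted p of 0.05 (11.1%), 6 of them higher in P815-IFNG (5.27%), and DESeq2 called 0. For P815-IFNG against P815-M in the dark, 1 member, Ifngr1, was called (1.54%), 3 were under an unadjusted p of 0.05 (16.3%), and DESeq2 called 1. For the interaction of line and light, 0 members were called (0.016%), 2 were under an unadjusted p of 0.05 (5.73%), and DESeq2 called 0. Fold changes above 0 were held by 6, 6, 8, 8 and 6 members in these 5 comparisons, in the order given, against 46.7%, 51.1%, 51.2%, 55% and 46.8% of all genes tested. The median log2 fold change of the members was 0.14, 0.33, 0.50, 0.46 and 0.11 in the same order, against -0.03, 0.01, 0.02, 0.06 and -0.04 over all genes tested. The comparisons share groups of libraries, so their values are not independent of each other.

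**Figure D1:**
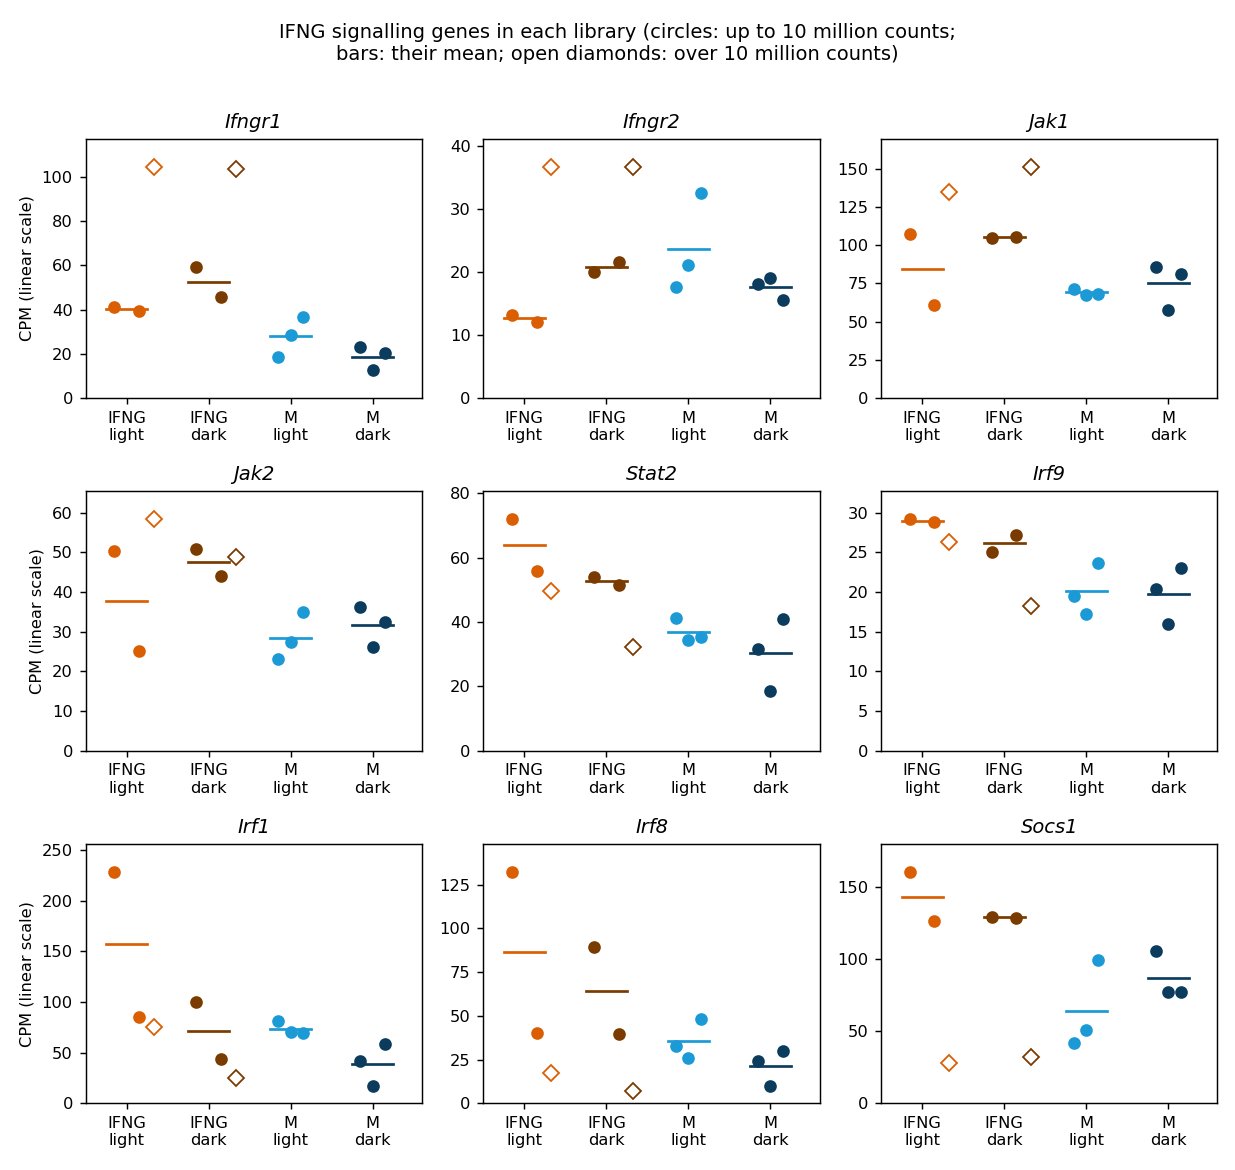
CPM (y axis, linear) of each of the 9 members in every library, by line and illumination, with filled circles for the 10 shallow libraries, bars for their group means and open diamonds for the deep libraries. Irf1 reached 228.8 CPM in 1 P815-IFNG light library, and Ifngr1 in the 3 P815-M dark libraries (12.9 to 23.1 CPM) lay below the shallow P815-IFNG dark libraries.

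Ifngr1 (ENSMUSG00000020009.13, chr10:19591949-19610229, + strand of GRCm38, protein-coding), the ligand-binding chain, was higher in P815-IFNG than in P815-M tumors in the dark. The shallow P815-IFNG dark libraries were at 59.4 and 45.9 CPM and the P815-M dark libraries at 23.1, 12.9 and 20.3 CPM. Every P815-IFNG value was above every P815-M value. The rise was 2.35-fold (log2 fold change 1.23, SE 0.24, adjusted p = 0.00883 by edgeR's quasi-likelihood test), and 1.28 on the log2 scale (adjusted p = 0.0180 in the same edgeR test) with the shallow libraries alone. Leaving out P815-IFNG dark replicate 1 kept a log2 fold change of 1.08 with an adjusted p of 0.0513 in the edgeR test. Without the term for the kind of library it was 1.71, with an adjusted p of 0.604. Summed CPM of the 12 macrophage and monocyte markers, all of them detected, was 1992 to 2212 in the shallow P815-IFNG dark libraries and 676 to 1114 in the P815-M dark libraries. Adgre1, Mrc1, Ly6c2 and Fcgr1 overlapped between these groups, and the other markers were higher in P815-IFNG without overlap. The part of these markers' cells in the Ifngr1 difference was not tested.

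In light the gap in Ifngr1 between the lines was smaller in size. P815-IFNG light libraries were at 41.2 and 39.1 CPM and P815-M light libraries at 18.5, 28.4 and 36.7 CPM, again without overlap, and the log2 fold change was 0.50 (SE 0.24, adjusted p = 0.438, edgeR quasi-likelihood test). Within P815-IFNG tumors the light libraries lay below the dark ones, yet the deep libraries stood at 104.5 CPM in light and 103.6 CPM in the dark, a log2 ratio of 0.01 (95% counting interval -0.05 to 0.07). The fitted effect of light was -0.12 in P815-IFNG and 0.61 in P815-M tumors, and their difference of -0.73 (SE 0.31, unadjusted p = 0.0297, adjusted p = 0.812 in the edgeR test) did not pass.

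Ifngr2 (ENSMUSG00000022965.8, chr16:91547072-91565623, + strand), the accessory chain, did not move with Ifngr1. It was at 13.2 and 12.2 CPM in the shallow P815-IFNG light libraries, 20.02 and 21.5 CPM in P815-IFNG dark, 17.6, 21.1 and 32.5 CPM in P815-M light, and 18.1, 19.1 and 15.6 CPM in P815-M dark. The P815-IFNG light libraries were the lowest of all 10, below every library of the other groups. The deep libraries did not show this gap, at 36.7 CPM in light and 36.6 CPM in the dark. In the fit, P815-IFNG was lower than P815-M in light, by a log2 fold change of -0.84 (SE 0.27, adjusted p = 0.216, edgeR quasi-likelihood test), which did not pass, and the value in the dark was -0.08. Across the 10 shallow libraries, Pearson's r of Ifngr2 with the other 8 members ran from -0.41 to 0.11, and that with Ifngr1 was 0.07, as a description.

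Jak1 (ENSMUSG00000028530.14, chr4:101152367-101265282, - strand), the kinase that sits on IFNGR1, was steady by comparison. It was at 107.2 and 61.2 CPM in the shallow P815-IFNG light libraries and at 104.9 and 105.6 CPM in the dark ones. The P815-M libraries lay at 71.5, 67.5 and 68.3 CPM in light and at 86.0, 57.8 and 81.3 CPM in the dark. Light and dark libraries overlapped in each line, and the 2 P815-IFNG light libraries were further apart than any pair of P815-M libraries. The deep libraries were at 135 CPM in light and 151 CPM in the dark (log2 ratio -0.17, 95% counting interval -0.22 to -0.11), where the median over 13686 genes was -0.09. Fitted log2 fold changes ran from -0.16 to 0.28 over the 4 comparisons of groups, and none passed the edgeR test.

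Jak2 (ENSMUSG00000024789.13, chr19:29251828-29313080, + strand), the kinase of the IFNGR2 chain, followed Jak1 from library to library. Its levels were 50.4 and 25.2 CPM in the shallow P815-IFNG light libraries, 50.9 and 44.1 CPM in P815-IFNG dark, 23.1, 27.5 and 35.0 CPM in P815-M light and 36.2, 26.2 and 32.4 CPM in P815-M dark. The same P815-IFNG light library, replicate 2, was the lower one for both kinases. Pearson's r between the kinases was 0.90 over the 10 shallow libraries. The deep libraries stood at 58.4 CPM in light and 48.8 CPM in the dark. The fitted effect of light in P815-IFNG tumors was close to 0 and took either sign under other settings, and the gaps between the lines, 0.41 in light and 0.30 in the dark on the log2 scale, did not pass the edgeR test.

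Stat2 (ENSMUSG00000040033.16, chr10:128270559-128292849, + strand), the STAT of the ISRE-binding complex, was at 72.0 and 55.8 CPM in the shallow P815-IFNG light libraries and at 54.0 and 51.6 CPM in the dark ones. P815-M libraries were at 41.2, 34.4 and 35.4 CPM in light and at 31.6, 18.7 and 41.0 CPM in the dark. P815-IFNG libraries thus lay above the P815-M libraries in both conditions, and P815-IFNG light above P815-IFNG dark, with a narrow gap between 55.8 and 54.0 CPM. The deep libraries had the same order, at 49.7 CPM in light and 32.3 CPM in the dark (log2 ratio 0.62, 95% counting interval 0.52 to 0.72). In the fit, the effect of light was 0.51 in P815-IFNG tumors (SE 0.20, unadjusted p = 0.0198, adjusted p = 0.500) and 0.33 in P815-M tumors (SE 0.22, adjusted p = 0.579), and neither passed edgeR's quasi-likelihood test. The log2 fold change between the lines was 0.74 in light (SE 0.23, adjusted p = 0.180) and 0.55 in the dark (SE 0.23, adjusted p = 0.216) in the same edgeR test.

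Irf9 (ENSMUSG00000002325.15, chr14:55603571-55610030, + strand), the DNA-binding partner of STAT2, varied least of the 3 IRF members. It was at 29.2 and 28.8 CPM in the shallow P815-IFNG light libraries, at 25.1 and 27.2 CPM in P815-IFNG dark, at 19.5, 17.2 and 23.6 CPM in P815-M light and at 20.4, 16.0 and 23.1 CPM in P815-M dark. The 4 P815-IFNG libraries were above all 6 P815-M libraries, and the light ones above the dark ones. In the deep libraries it was at 26.3 CPM in light and 18.2 CPM in the dark (log2 ratio 0.53, 95% counting interval 0.40 to 0.67). The fitted effect of light was 0.41 in P815-IFNG tumors (SE 0.20, adjusted p = 0.610) and 0.06 in P815-M tumors, and the log2 fold change between the lines in light was 0.50 (SE 0.23, adjusted p = 0.435), none past the edgeR test. Exons of Irf9 share 123 bases with exons of Rnf31 on the same strand, where reads cannot be assigned to 1 gene. Stat2 and Irf9 correlated at a Pearson's r of 0.88 over the 10 shallow libraries.

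Irf1 (ENSMUSG00000018899.16, chr11:53770014-53778374, + strand) had the largest fitted effect of light of the 9 members in both lines, and the largest light-to-dark ratio in the deep pair. The shallow P815-IFNG light libraries were at 228.8 and 85.0 CPM and the dark ones at 99.8 and 44.1 CPM. These overlap, since replicate 1 was the higher in each group and its dark value exceeded the light value of replicate 2. The deep libraries were at 75.5 CPM in light and 25.5 CPM in the dark (log2 ratio 1.565, 95% counting interval 1.465 to 1.666). Over 13686 genes the median of this ratio was -0.09, with quartiles of -0.32 and 0.19. A ratio of at least 1 on the log2 scale in this pair was held by 10.9% of the genes tested. That share is over all 18804 genes, also those near 0, whereas the 13686 genes had at least 1 CPM. The P815-M libraries were at 81.4, 70.6 and 69.6 CPM in light and at 42.0, 17.3 and 58.2 CPM in the dark, without overlap, so light was above dark also in the line that lacks the cassette.

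The fitted effect of light on Irf1 was 1.39 on the log2 scale in P815-IFNG tumors (SE 0.32, unadjusted p = 3.75e-04, adjusted p = 0.158) and 0.97 in P815-M tumors (SE 0.34, adjusted p = 0.217), and neither passed edgeR's quasi-likelihood test. Their difference was 0.42 (SE 0.47, adjusted p = 0.935 in the edgeR test). Leaving out P815-IFNG light replicate 1 gave 0.99 in P815-IFNG tumors, leaving out light replicate 2 gave 1.70 (adjusted p = 0.0118 in the edgeR test) and leaving out dark replicate 1 gave 1.78 (adjusted p = 0.0211 in the edgeR test), and DESeq2 with all libraries gave 1.43 (adjusted p = 0.0368). Between the lines, the log2 fold change was 1.04 in light (SE 0.35, adjusted p = 0.233) and 0.62 in the dark (SE 0.36, adjusted p = 0.420) in the edgeR test; in light it was 1.44 without P815-IFNG light replicate 2 (adjusted p = 0.0387 in that test) and 0.56 without light replicate 1. In the dark it was 0.12 without P815-IFNG dark replicate 1 and 1.01 without P815-M dark replicate 3. In P815-M tumors the summed macrophage and monocyte markers were at 1636 to 1749 CPM in light and 676 to 1114 CPM in the dark. In shallow P815-IFNG tumors they were at 1344 to 2173 and 1992 to 2212 CPM, overlapping. Lyz2 was the highest of these markers in P815-M light, at 691.5, 526.9 and 443.2 CPM, against 184.3, 51.97 and 259.4 CPM in the dark. Itgam, Csf1r, C1qa, C1qb and C1qc were also higher in P815-M light without overlap. Adgre1, Cd68, Mrc1, Ly6c2, Ccr2 and Fcgr1 overlapped. The part of macrophages and monocytes in the Irf1 values was not tested. Exons of Irf1 overlap those of Gm17334 on the opposite strand by 135 bases, and Gm17334 was not analysed here.

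**Figure D2:**
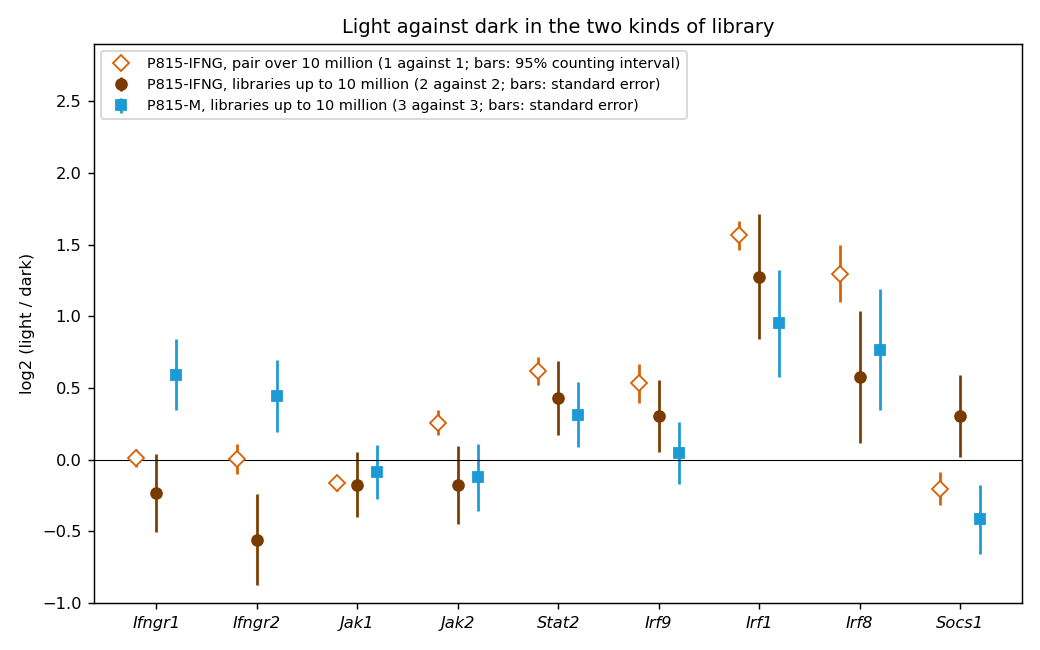
Log2 ratio of light to dark (y axis) for each of the 9 members in P815-IFNG and P815-M tumors, fitted on the shallow libraries (bars: 1 SE), and for P815-IFNG also from the deep pair (bars: 95% counting intervals). The points of Stat2, Irf9, Irf1 and Irf8 were above 0 throughout, and Ifngr2 lay below 0 in the shallow P815-IFNG libraries and at 0.00 in the deep pair.

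Irf8 (ENSMUSG00000041515.10, chr8:120736358-120756694, + strand), the myeloid and B-lineage factor, spread widely between replicates. It was at 132.4 and 40.5 CPM in the shallow P815-IFNG light libraries and at 89.3 and 39.5 CPM in the dark ones. P815-M libraries were at 32.6, 25.8 and 48.1 CPM in light and at 24.3, 9.77 and 29.7 CPM in the dark. Light and dark overlapped in both lines, and the lines overlapped in light but not in the dark. In the deep libraries it was at 17.5 CPM in light and 7.13 CPM in the dark (95% counting interval of the log2 ratio 1.10 to 1.49). The fitted effect of light was 0.83 in P815-IFNG (SE 0.35, adjusted p = 0.545) and 0.78 in P815-M tumors (SE 0.40, adjusted p = 0.437) in edgeR's quasi-likelihood test, and their difference was 0.05. In P815-IFNG tumors it was 0.39 without light replicate 1 and 1.28 without dark replicate 1. In P815-M tumors it was 0.49 without dark replicate 2.

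Between the lines, Irf8 had the largest fitted difference of the members in light, 1.32 on the log2 scale (SE 0.39, adjusted p = 0.164 in the edgeR test), and in the dark a similar one (SE 0.40, adjusted p = 0.0988 in the edgeR test). Neither passed, but without P815-IFNG light replicate 2 they were 1.81 (adjusted p = 0.0153) and 1.37 (adjusted p = 0.0191), both called by edgeR. Without P815-IFNG light replicate 1, the library at 132.4 CPM, the value in light was 0.80, and without P815-IFNG dark replicate 1 the value in the dark was 0.70. The summed macrophage and monocyte markers differed between the lines in the dark, with the overlapping markers named for Ifngr1. In light the sums overlapped, at 1344 to 2173 CPM in shallow P815-IFNG and 1636 to 1749 CPM in P815-M. The 10 B cell markers, another population that uses Irf8, summed to 5.60 to 18.4 CPM in shallow P815-IFNG libraries and 9.46 to 16.7 CPM in P815-M libraries. The 10 dendritic cell markers summed to 40.9 to 46.8 CPM in shallow P815-IFNG light, 81.4 to 101 CPM in P815-IFNG dark, 71.4 to 86.0 CPM in P815-M light and 57.8 to 126 CPM in P815-M dark. The dendritic cell sum was lowest in the shallow P815-IFNG light libraries, but single markers varied. Ccr7 was at 10.4 and 18.45 CPM there, against 31.9 and 41.31 CPM in shallow P815-IFNG dark. Batf3 was at 4.799 and 2.699 CPM, overlapping the 5.09 and 2.118 CPM of P815-IFNG dark. The part of any of these cells was not tested.

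Socs1 (ENSMUSG00000038037.5, chr16:10782240-10785536, - strand), the inhibitor of the JAK kinases, did not follow Irf1. It was at 160.4 and 126 CPM in the shallow P815-IFNG light libraries, 129 and 128.5 CPM in P815-IFNG dark, 42.1, 50.8 and 99.1 CPM in P815-M light and 105.3, 77.3 and 77.0 CPM in P815-M dark. P815-IFNG libraries were above all P815-M libraries, whereas light and dark overlapped in both lines. In the deep libraries it was at 27.7 CPM in light and 31.9 CPM in the dark (log2 ratio -0.20, 95% counting interval -0.32 to -0.09), against a ratio above 0 for Irf1 and Irf8 in the same pair. Light had a fitted effect of 0.14 in P815-IFNG (SE 0.22) and -0.40 in P815-M tumors (SE 0.23, adjusted p = 0.505), and their difference was 0.55 (SE 0.32, adjusted p = 0.882) in edgeR's quasi-likelihood test. The log2 fold change between the lines was 1.00 in light (SE 0.24, adjusted p = 0.0604) and 0.46 in the dark (SE 0.24, adjusted p = 0.365), and neither passed the edgeR test. Without P815-M light replicate 3, the highest of its group, the value in light was 1.42 (adjusted p = 0.00242 in the edgeR test). DESeq2 gave 0.9909 in light (adjusted p = 0.01345), just under the minimum fold. ComBat-seq counts gave 1.03 (adjusted p = 0.0198 in the edgeR test). The same edgeR test gave 1.09 in the shallow libraries (adjusted p = 0.106) and 0.62 without the library term (adjusted p = 0.714).

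**Figure D3:**
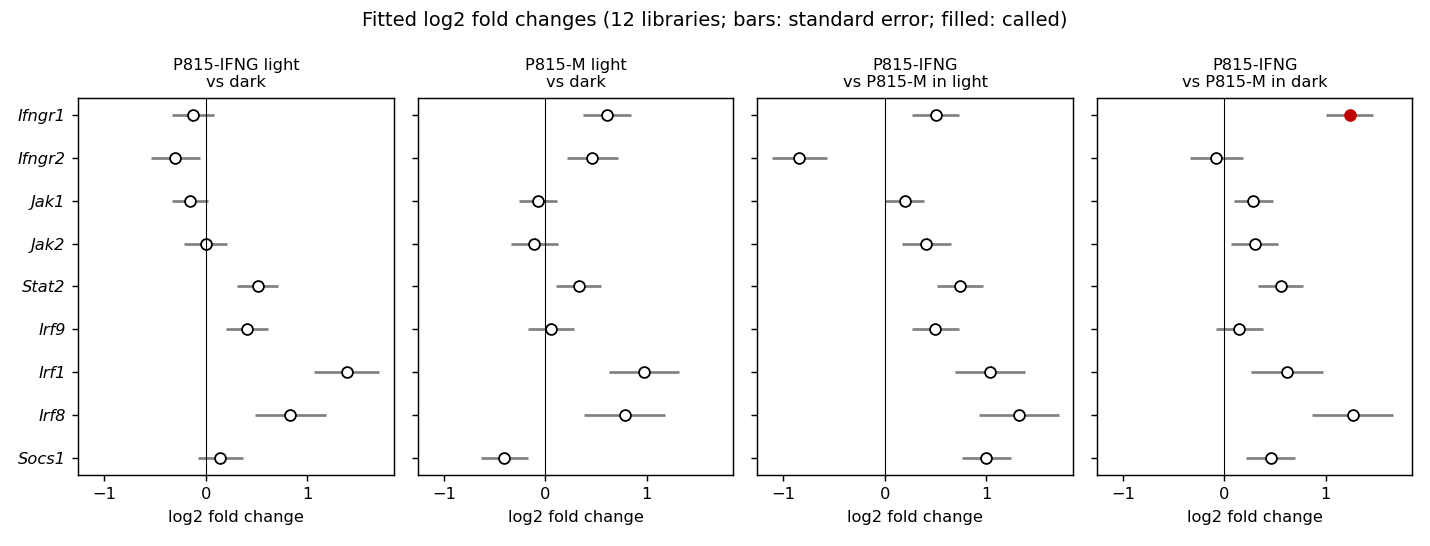
Fitted log2 fold changes (x axis) with 1 SE for the 9 members in the 4 comparisons of groups, filled where called. The single called value is Ifngr1 in the dark, 1.23 higher in P815-IFNG than in P815-M.

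The members were also counted by whether libraries overlapped. Among the shallow libraries, every P815-IFNG dark value was above every P815-M dark value for 8 of 9 members, all but Irf1, which 27.1% of all genes tested also showed, and the reverse for 0 members (8.98%). In light this held for 5 members, namely Ifngr1, Stat2, Irf9, Irf1 and Socs1, beside 15.8% of all genes, and the reverse for Ifngr2 (9.76% of all genes). Light lay above dark without overlap for 2 members in P815-IFNG tumors, Stat2 and Irf9, where 12% of genes did so. Light lay below dark for 2 others, Ifngr1 and Ifngr2, where 29.7% did so. In P815-M tumors it was Irf1 alone (9.58%), with 0 members in the other direction (7.73%). The summed CPM of the 9 members was 508 to 632 in the shallow P815-IFNG dark libraries and 255 to 387 in the P815-M dark libraries, and 474 to 835 in P815-IFNG light and 343 to 448 in P815-M light, without overlap in either.

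Levels of different genes were set in order only per kilobase of exon. In the 10 shallow libraries the mean was highest for Socs1 at 34.2 CPM per kb, followed by Irf1 at 20.04, Ifngr1 at 11.4, Jak1 at 11.2, Stat2 at 7.35, Jak2 at 6.98, Irf8 at 6.69, Ifngr2 at 5.07 and Irf9 at 4.27 CPM per kb. Most neighbours in this order changed places between libraries, since Ifngr1 exceeded Jak1 in 5 of 10 libraries, Stat2 exceeded Jak2 in 5 of 10 and Irf8 exceeded Ifngr2 in 4 of 10. Jak1 exceeded Stat2 in 9 of 10 and Irf1 exceeded Ifngr1 in 8 of 10. In the deep libraries the order was another one, led by Ifngr1 at 36.6 and Jak1 at 19.8 CPM per kb and ending with Irf8 at 1.75 CPM per kb, with Socs1 at 10.3 CPM per kb. The receptor and kinase genes were lower in the shallow than in the deep libraries in CPM, at a log2 ratio of the means of -1.68 for Ifngr1, -0.94 for Ifngr2, -0.82 for Jak1 and -0.61 for Jak2, whereas Irf8 was higher at 1.94, Socs1 at 1.74 and Irf1 at 0.66. Over 8154 genes of at least 10 CPM the same ratio had a median of -0.70 and quartiles of -1.38 and 0.095, so Irf8 and Socs1 lay far above the upper quartile. The shallow set holds both lines and the deep set P815-IFNG alone, and this difference of line is part of these ratios. Whether reads of both kinds were counted on the same strand was not tested, so these orders and ratios need not reflect mRNA levels.

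**Figure D4:**
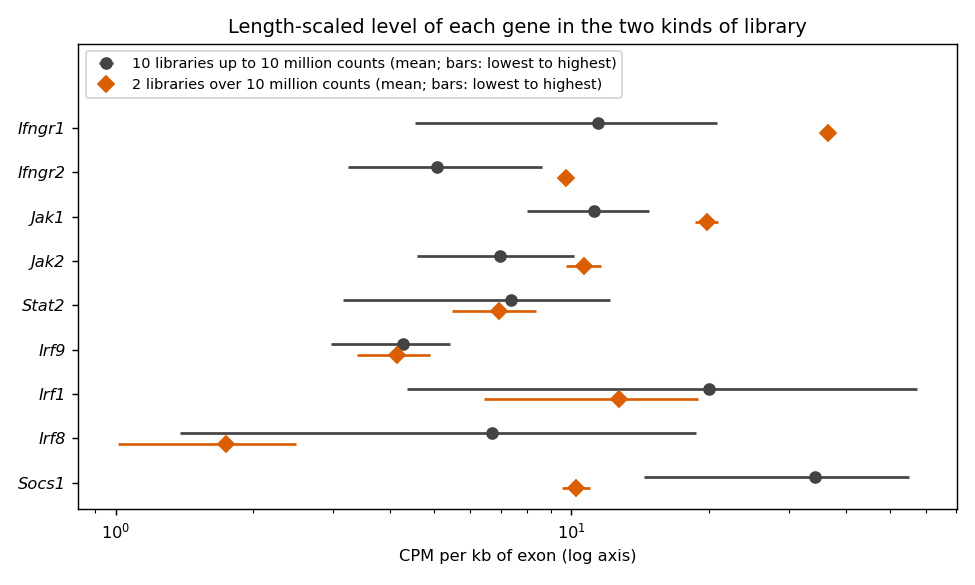
CPM per kilobase of exon (log axis) of the 9 members, as the mean of the 10 shallow and of the deep libraries, with bars from the lowest to the highest library. Socs1 leads in the shallow libraries (mean 34.2) and Ifngr1 in the deep ones (mean 36.6).

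Further genes of the pathway, 32 in number, were followed as a list of the ligand, type I interferon receptor chains, other JAK, STAT, IRF and SOCS genes, phosphatases, PIAS genes and Usp18. All 32 were tested, and 0 were called in each of the 5 comparisons by edgeR's quasi-likelihood test. Of all genes tested, 0.0106% to 1.54% were called in these comparisons. Under an unadjusted p of 0.05 in that test there were 5 in P815-IFNG light against dark, 4 of them higher. Of all genes tested 8.34% were, 779 of 1568 higher. In P815-M light against dark there were 4, 1 of them higher, beside 12.5% of all genes, 1405 of 2348 higher. Between the lines there were 3 in light (11.1% of all genes) and 6 in the dark (16.3%). The difference of the light effects had 1 (5.73%). DESeq2 also called 0 in each comparison, with 2 to 8 of the 32 left without an adjusted p. In P815-IFNG tumors 21 of 32 had a fold change above 0 in light, where 46.7% of all genes did, and in P815-M tumors 11 of 32, where 51.1% did.

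The row of Ifng, the ligand encoded by the cassette and by the mouse genome, was low in CPM. It was at 14.8 and 1.80 CPM in the shallow P815-IFNG light libraries and at 2.04 and 1.06 CPM in the dark ones, at 1.81, 0.430 and 1.69 CPM in P815-M light, and at 0.771, 0 and 1.17 CPM in P815-M dark. Apart from the 14.8 CPM of P815-IFNG light replicate 1, these shallow values rest on a handful of counts or none. That library also had the highest Jak1, Stat2, Irf9, Irf1, Irf8 and Socs1 of the 10 shallow libraries, but not the highest Ifngr1, Ifngr2 or Jak2. It is a single tumor, and the share of all genes that were highest in it was not counted. A link of these levels to Ifng was not tested. In the deep libraries Ifng was at 1.83 CPM in light and 0.709 CPM in the dark, a log2 ratio of 1.37 with a 95% counting interval of 0.74 to 2.03. Its fitted effect of light in P815-IFNG tumors, 2.07 (SE 0.77, adjusted p = 0.459), did not pass the edgeR test. The knock-in sequences were part of the reference. Which of the reads shared by the cassette and the endogenous gene entered this row was not tested. The row therefore need not show the total Ifng RNA.

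Among the other genes of the list with at least 5 CPM, Irf7, an IRF of the type I interferon response, had the highest light-to-dark value in P815-IFNG tumors. It was at 110 and 101 CPM in the shallow light libraries and at 74.7 and 74.5 CPM in the dark ones, without overlap, and at 19.6 and 11.1 CPM in the deep pair. The P815-M libraries ran from 65.0 to 102 CPM in light and from 87.9 to 94.6 CPM in the dark. Its log2 fold change of 0.73 (SE 0.18, adjusted p = 0.164) did not pass edgeR's quasi-likelihood test. Next came Usp18, a regulator of type I interferon signalling, at 0.59 (SE 0.28, adjusted p = 0.596) and Irf4, a lymphoid IRF, at 0.54 (SE 0.50, adjusted p = 0.842) in the edgeR test. The lowest values were those of the phosphatase gene Ptpn11, at -0.44 (SE 0.17, adjusted p = 0.471), of Socs2 at -0.37 (SE 0.23, adjusted p = 0.711) and of the phosphatase gene Ptpn1 at -0.20 (SE 0.17, adjusted p = 0.826), and none passed the edgeR test.

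The genes most like the members in their levels were sought over the 10 shallow libraries by Pearson's r of log2 CPM, among 9860 genes of at least 10 CPM on average. For Irf1 they were the guanylate-binding protein genes Gbp9 (r = 0.99), Gbp4 (r = 0.98) and Gbp2b (r = 0.98). These belong to a family of near-identical copies, whose shared reads cannot be assigned to 1 gene. For Irf8 they were Tnfaip2 (r = 0.97), Gpx1 (r = 0.97) and the MHC class I gene H2-Q7 (r = 0.96), also 1 of several near copies. For Socs1 they were Ccdc91 (r = 0.97), Apbb3 (r = 0.96) and the ribosomal protein gene Rps23 (r = 0.95), and for Irf9 Klhl6 (r = 0.96), Foxn3 (r = 0.95) and Mkrn1 (r = 0.94). Among the members themselves, Irf1 and Irf8 correlated at 0.91 and Stat2 and Irf8 at 0.90. These are descriptions over 10 libraries that share groups and normalization, the highest of many, and no test was made of them.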

How the data were processed

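RNA-seq libraries of 12 single tumors were used, from P815-IFNG and P815-M tumors in light and dark. The deposited values are whole-number counts for each gene symbol. The authors made these counts by aligning reads to mm10, with the knock-in sequences added, by STAR 2.7.9a and counting them with HTSeq 0.13.5 at default parameters. The mitochondrial filter and batch adjustment of the study's methods are not in these counts. With R 4.3.3 and edgeR 4.0.16, 18804 genes were kept after dropping 13 mitochondrial rows and all genes whose counts summed to under 10. Counts were normalized by TMM and fitted with a mean per group and a term for libraries over 10000000 counts, followed by quasi-likelihood tests of 5 comparisons. Sums and levels in CPM used the whole library total. Intervals of the deep pair are exact conditional binomial, at 95%, and cover counting error only.

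All 9 members were named. Of the further pathway genes, the 3 highest and the 3 lowest in P815-IFNG light against dark with at least 5 CPM were named, and Ifng. For 4 members, the 3 genes of highest Pearson's r were named. The members and lists were chosen with earlier results of these data known. The alternatives tried were edgeR with the size factors of DESeq2, DESeq2 1.42.0 itself, filterByExpr, no filter, mitochondrial rows kept and no library term. Further ones were the 10 shallow libraries, ComBat-seq of sva 3.50.0, a replicate block, no minimum fold and each library left out. No minimum fold gave counts of calls only, and no member values. Gene positions are from GENCODE M21 and promoters from RefSeq. Code was tested on simulated data and run in part with pandas 2.3.3, numpy 2.4.6 and matplotlib 3.10.9 under Python 3.11.15. Values of 1 gene of the pathway are not reported here.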

Additional observations from a re-analysis of the deposited data

How the results depend on the processing

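Of the member values, 887 kept direction and side of the threshold over the alternatives, 35 changed sign, 21 passed and 2 no longer passed. Members called in P815-IFNG light against dark, 0 as reported, were 1 (Irf1) with DESeq2, no filter and ComBat-seq, and 0 to 1 with a library left out. Between the lines in light, 0 as reported, they were 2 with no filter, 3 with ComBat-seq and 0 to 2 with a library left out, and in the dark, 1 as reported, 2 with no filter and ComBat-seq, 0 with no library term and 0 to 2 with a library left out. Called genes in P815-IFNG light against dark, 2 as reported, were 54 with DESeq2, 1 with filterByExpr, 211 with no filter, 0 with no library term, 1 in the 10 shallow libraries and 166 with ComBat-seq (1 to 52 with a library left out). In P815-M they were 194 as reported, 429 with no filter and 0 with no library term (61 to 237). Between the lines in light they were 82 as reported, 245 with no filter, 3 with no library term, 39 in the shallow libraries and 263 with ComBat-seq (29 to 161). In the dark they were 290 as reported, 640 with no filter, 2 with no library term, 545 with ComBat-seq and 441 with no minimum fold (153 to 444). For the interaction of line and light they were 3 as reported, 1 with DESeq2's size factors and with filterByExpr, 20 with DESeq2, 203 with no filter, 0 with no library term and 41 with ComBat-seq (1 to 14).

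Values near 0 changed sign. Jak2 in P815-IFNG light against dark was -0.012 with no filter, -0.00081 with no library term, -0.18 in the shallow libraries, -0.011 with ComBat-seq and -0.20 to 0.24 with a library left out, and in the interaction -0.054 in the shallow libraries and -0.064 to 0.345 with a library left out. Between the lines in the dark, Ifngr2 was 0.37 with no library term, 0.027 in the shallow libraries and -0.21 to 0.044 with a library left out, and Socs1 -0.047 with no library term. In the interaction, Irf8 was -0.17 with no library term, -0.19 in the shallow libraries and -0.36 to 0.52 with a library left out, and Stat2 was -0.079 to 0.39 with a library left out. With a library left out, Irf9 in P815-M was -0.042 to 0.17, and Jak1 was -0.37 to 0.011 in P815-IFNG, -0.044 to 0.41 between the lines in light and -0.27 to 0.081 in the interaction. The cause was not tested for any of these.

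Replicate numbers are shared between groups. Deviations of same-numbered shallow libraries correlated at 0.083 between P815-IFNG light and dark and at -0.0905, -0.0172 and -0.351 in P815-M. With 2 shallow libraries in each P815-IFNG group, replicates 1 and 2 must give the same value, so it cannot decide on pairing there. In P815-M, 0 of 3 light libraries correlated best with their own number. With the replicate number as a block, called genes were 62 in P815-IFNG light against dark and 16 in the interaction, and called members 1 in P815-IFNG (Irf1), 1 in P815-M (Irf1), 2 between the lines in light (Irf8 and Socs1) and 2 in the dark (Ifngr1 and Irf8). Jak2 in P815-IFNG was then -0.017 and Irf8 in the interaction -0.076. The shallow depth, 22 counts at the lowest for Irf8, limits all member values in the 10 libraries. So does the strand of counting, which was not tested.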
